A study of Mus musculus with 9 samples.

Results

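Immediate early genes of neuronal activity were described in 3 brain regions of mice on 3 diets. The 10 genes were Fos, Fosb, Junb, Egr1, Egr2, Egr3, Egr4, Arc, Npas4 and Nr4a1, chosen by name and found on the array through the RefSeq accession of each probe, out of 16358 genes that could be named. The 9 arrays were Agilent whole mouse genome arrays labelled in 1 colour, Cy3, and each held RNA pooled from 4 male wild-type C57BL/6J mice aged 8 to 9 weeks. Mice of the AD group fed ad libitum and served as controls. Mice of the RFR group went through repeated fasting and refeeding, with the switch at 20:00 and fasting begun on day 0, and mice of the CR group (caloric restriction) were given, over 2 days, 50% of the amount that RFR mice ate. Amygdala, hypothalamus and prefrontal cortex of every diet were taken on day 8 from mice killed at 14:00 under diethyl ether and perfused with cold saline. The labels do not state whether the RFR mice were fasting or refed at that hour. A region on a given diet thus had 1 array, and the 3 regions of a diet came from the same pool of mice.

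Immediate early genes are transcribed within minutes of strong synaptic input, without new protein synthesis. Calcium entry through NMDA receptors and voltage-gated channels activates kinases that phosphorylate the transcription factors CREB and SRF, which already sit at the promoters of these genes, and the messages decay quickly once activity ends. Fos, Fosb and Junb encode subunits of the AP-1 transcription factor. Egr1 to Egr4 encode zinc-finger factors that bind GC-rich sites, Npas4 encodes a bHLH-PAS factor induced by calcium in neurons, Nr4a1 encodes an orphan nuclear receptor, and Arc encodes a synaptic protein that promotes the removal of AMPA receptors. In brain tissue their messages serve as markers of recent neuronal firing.

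Promoter sequences were available from RefSeq (GRCm38.p6, 250 bases before to 50 after each annotated start) for 7 of the 10 genes: Fos, Fosb, Junb, Egr2, Egr4, Npas4 and Nr4a1. They were searched on both strands for 5 motifs. TGACG, the half-site that CREB binds and which on the other strand reads CGTCA, was found in all 7 genes, against 23.0% of the 27025 genes in the table and 20.8% of its 32851 windows. Among windows at least as GC-rich as the poorest of the 7 genes, 30.4% held it. The full palindrome TGACGTCA, which contains the half-site, was in none of the 7 (1.79% of windows), and the CArG box of SRF was in 1, Egr2 (1.63% of windows). The EGR motif GCGNGGGCG was in 2 genes, Fosb and Nr4a1 (5.55% of windows and 6.27% of genes). The AP-1 motif TGANTCA was in none (7.81% and 8.97%). In windows at least as GC-rich as the poorest of the 7 genes, 12.99% held the EGR motif and 3.91% the AP-1 motif. Of the same windows, 3.05% held the palindrome and 1.19% the CArG box. A match describes the letters in this window and is no evidence of binding. Below are the 250 bases upstream of the start for 4 genes that differed in their data: Fos, whose regions overlapped, Npas4, lowest under AD in every region, and Nr4a1 and Egr2, which were ordered by region. They lie at chr12:85473640-85473889 (plus strand), chr19:4989972-4990221 (minus strand), chr15:101266596-101266845 (plus strand) and chr10:67537619-67537868 (plus strand, 1 of 5 windows listed for Egr2), each written 5′ to 3′ with TGACG or CGTCA and the CArG box in capitals.
Fos: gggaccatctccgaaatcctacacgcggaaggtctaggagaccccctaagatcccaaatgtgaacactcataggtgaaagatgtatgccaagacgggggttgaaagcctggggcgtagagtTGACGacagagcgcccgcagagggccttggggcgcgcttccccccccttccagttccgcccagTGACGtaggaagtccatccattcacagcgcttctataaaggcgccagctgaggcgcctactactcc
Npas4: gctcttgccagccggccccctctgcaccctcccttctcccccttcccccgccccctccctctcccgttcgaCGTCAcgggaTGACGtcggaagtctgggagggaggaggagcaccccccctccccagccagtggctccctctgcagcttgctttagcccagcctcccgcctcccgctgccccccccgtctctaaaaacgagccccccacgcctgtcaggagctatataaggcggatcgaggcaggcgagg
Nr4a1: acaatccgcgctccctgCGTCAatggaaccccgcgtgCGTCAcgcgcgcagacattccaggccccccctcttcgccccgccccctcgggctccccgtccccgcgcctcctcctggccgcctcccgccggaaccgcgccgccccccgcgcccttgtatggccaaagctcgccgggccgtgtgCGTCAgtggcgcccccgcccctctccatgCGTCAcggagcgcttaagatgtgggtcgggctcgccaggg
Egr2: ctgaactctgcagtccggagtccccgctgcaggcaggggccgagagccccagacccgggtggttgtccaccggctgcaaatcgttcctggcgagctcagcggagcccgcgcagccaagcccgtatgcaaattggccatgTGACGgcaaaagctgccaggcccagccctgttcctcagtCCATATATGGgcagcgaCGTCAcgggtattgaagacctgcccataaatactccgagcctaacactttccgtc
Fos held 2 half-sites, starting at -129 and -66 relative to the annotated start, and Npas4 held 2 within a few bases of each other, starting at -179 and -169. Nr4a1 held 4, and the Egr2 window held 2 on either side of its CArG box, which began at -72.

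Levels below are on a log2 scale, as processed signal over the 75th percentile of the noncontrol spots on the same array, so 0 marks a spot brighter than 75% of them. A level may be compared between arrays for 1 gene, not between genes, because probes differ in brightness. Of the 10 genes, 9 were well above background on all 9 arrays, and Egr3 on 3 (the CR amygdala, AD prefrontal cortex and RFR prefrontal cortex arrays). No probe was saturated. The labelled regions were checked with marker genes. The 6 hypothalamic markers (Hcrt, Pmch, Agrp, Avp, Oxt and Sim1) were all higher in hypothalamus than in prefrontal cortex, with a median difference of 9.83, and 3 of 3 excitatory cortical markers were higher in prefrontal cortex, with a median difference between hypothalamus and prefrontal cortex of -8.05. The labels place the prefrontal slice 2.5 to 3.5 mm posterior to bregma, behind the amygdala slice at 1.5 to 2.5 mm. The arrays were spread over 3 slides: the AD arrays and the RFR prefrontal array shared the first, the other RFR arrays and the CR hypothalamic and prefrontal arrays the second, and the CR amygdala array was alone on the third.

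The comparison of regions asked where these genes were highest. Of the 10 genes, 9 were higher in prefrontal cortex than in hypothalamus, 8 were higher in amygdala than in hypothalamus, and 6 were higher in prefrontal cortex than in amygdala. The 9 and the 6 include Egr3, which was too dim to measure on any hypothalamic array and on most amygdala arrays. It entered the fit mainly through prefrontal arrays, so its place in these counts is not independent of the filter. The gene that passed in none of these comparisons was Fos. The limma fit used region and diet as terms with 3 arrays per region, p-values were adjusted over all 12618 genes fitted, and differences are given ± SE. For background, 48.0% of genes fitted passed between hypothalamus and prefrontal cortex (21.3% lower and 26.7% higher in hypothalamus), 29.4% for amygdala against hypothalamus (13.5% higher in amygdala), and 22.3% for amygdala against prefrontal cortex (10.2% lower in amygdala). The median difference of the 10 genes was -2.26 for hypothalamus minus prefrontal cortex, where that of all genes was 0.06. For amygdala minus hypothalamus the medians were 1.43 and -0.06, and for amygdala minus prefrontal cortex -0.85 and 0.00. All 3 contrasts use the same 9 arrays and are not independent.

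**Figure D1:**
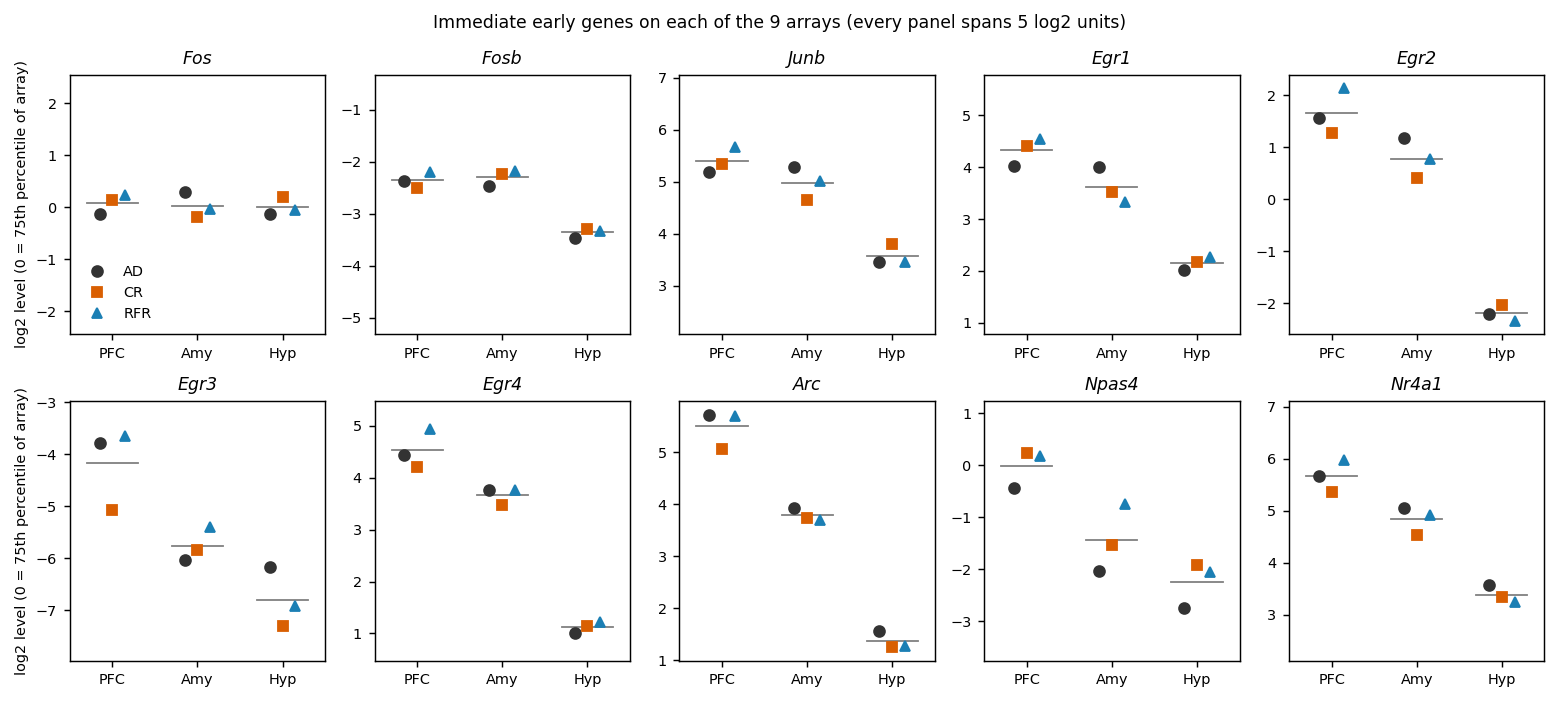
Log2 level of each immediate early gene (0 is the 75th percentile of the array) on the 9 arrays, by region (PFC, prefrontal cortex; Amy, amygdala; Hyp, hypothalamus), with 1 point per diet and a line at the mean of 3 arrays. Fos stays within -0.20 to 0.29 on all arrays, while Egr2, Egr4 and Arc are lowest in hypothalamus and highest in prefrontal cortex.

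Among the AP-1 genes, Fos lay at 0.29, -0.05 and -0.20 in amygdala (AD, RFR and CR, the order kept for every gene below), at -0.12, -0.05 and 0.19 in hypothalamus and at -0.13, 0.24 and 0.13 in prefrontal cortex. The 3 regions overlapped throughout, and the region means, 0.02, 0.01 and 0.08, lay within the spread of diets in any region. Hypothalamus minus prefrontal cortex was -0.08 ± 0.18 (limma, adjusted p = 0.75) and amygdala minus hypothalamus 0.01 ± 0.18 (adjusted p = 0.969). The Fos probe was printed 10 times on each array, and its spots had an SD of 0.04 to 0.088 within an array.

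Fosb, whose truncated product ΔFosB is known to build up with repeated stimulation, lay at -2.47, -2.18 and -2.23 in amygdala, -3.46, -3.32 and -3.28 in hypothalamus and -2.37, -2.19 and -2.5 in prefrontal cortex. Hypothalamus was below every array of the other regions, which overlapped each other. It was 2.0-fold lower than prefrontal cortex (-1.0 ± 0.11, limma adjusted p = 0.000371, lower in 3 of 3 diets) and 2.08-fold lower than amygdala (adjusted p = 0.000714). Junb, an AP-1 subunit that restrains the activity of Jun, lay at 5.28, 5.0 and 4.66 in amygdala, 3.46, 3.46 and 3.81 in hypothalamus and 5.18, 5.66 and 5.33 in prefrontal cortex. Hypothalamus was again separate and low, 3.53-fold below prefrontal cortex (-1.82 ± 0.21, limma adjusted p = 0.000438) and 2.65-fold below amygdala (adjusted p = 0.00315, and 0.0511 without the RFR pool). Amygdala minus prefrontal cortex missed the threshold for Fosb (0.06 ± 0.11, limma adjusted p = 0.75) and for Junb (-0.41 ± 0.21, adjusted p = 0.215).

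In the EGR family the regions did not overlap for Egr1, Egr2 or Egr4, and Egr3 was too dim for an order to be read. Egr1, also known as Zif268, lay at 3.99, 3.32 and 3.52 in amygdala, 2.01, 2.26 and 2.17 in hypothalamus and 4.01, 4.55 and 4.41 in prefrontal cortex. The order of the regions was the same on every diet, although the AD arrays of amygdala (3.99) and prefrontal cortex (4.01) nearly met. Egr1 was 4.51-fold lower in hypothalamus than in prefrontal cortex (-2.17 ± 0.22, limma adjusted p = 0.000228) and 2.76-fold lower than in amygdala (adjusted p = 0.00316). The step from prefrontal cortex to amygdala missed the threshold (-0.71 ± 0.22, adjusted p = 0.0598, 0.00983 to 0.425 over the alternatives).

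Egr2, also known as Krox20, lay at 1.17, 0.77 and 0.40 in amygdala, -2.21, -2.34 and -2.03 in hypothalamus and 1.56, 2.14 and 1.27 in prefrontal cortex. All hypothalamic arrays were more than 2 log2 units below all others. It was 14.4-fold lower in hypothalamus than in prefrontal cortex (-3.85 ± 0.25, limma adjusted p = 2.83e-05) and 7.88-fold lower than in amygdala (adjusted p = 0.000278). Egr4 lay at 3.75, 3.76 and 3.47 in amygdala, 1.01, 1.22 and 1.13 in hypothalamus and 4.43, 4.94 and 4.19 in prefrontal cortex, so that the regions kept clear of each other. It was 10.5-fold lower in hypothalamus than in prefrontal cortex (-3.40 ± 0.15, limma adjusted p = 6.26e-06) and 5.81-fold lower than in amygdala (adjusted p = 7.11e-05). Prefrontal cortex exceeded amygdala 1.83-fold for Egr2 (adjusted p = 0.0451, 0.0168 to 0.29 over the alternatives) and 1.81-fold for Egr4 (adjusted p = 0.00689, 0.00174 to 0.093).

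Egr3 was dim. It lay at -6.03, -5.40 and -5.84 in amygdala, -6.16, -6.91 and -7.30 in hypothalamus, where no array was well above background, and -3.78, -3.64 and -5.08 in prefrontal cortex. The prefrontal arrays of AD and RFR mice were well above background and the brightest of the 9, while the prefrontal array of CR mice was not. Hypothalamus passed as lower than prefrontal cortex (limma adjusted p = 0.000594, from values that include the dim ones). The difference was 1.78-fold with each hypothalamic value raised to the lowest signal well above background on its array. That size is not a strict bound, because 2 of 3 prefrontal arrays measured the gene and the prefrontal mean includes the third. On that CR array Egr3 (-5.08) was not well above background, although it exceeded the lowest signal that was (-5.12). Since 2 of the 3 arrays that brought Egr3 into the fit were prefrontal, its difference is not independent of the filter. Amygdala passed as lower than prefrontal cortex (limma adjusted p = 0.0136, 0.0109 to 0.115 over the alternatives), but 1 of 3 amygdala arrays measured Egr3, so the size of that difference is not given. Whether amygdala and hypothalamus differed was not measured.

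Outside the AP-1 and EGR families, Arc had the largest difference between regions of all 10 genes. It lay at 3.93, 3.70 and 3.74 in amygdala, 1.57, 1.27 and 1.26 in hypothalamus and 5.72, 5.70 and 5.07 in prefrontal cortex. The 3 regions were separate by more than 1 log2 unit at each step. Arc was 17.6-fold lower in hypothalamus than in prefrontal cortex (-4.14 ± 0.15, limma adjusted p = 2.76e-06) and 3.28-fold lower in amygdala than in prefrontal cortex (-1.71 ± 0.15, adjusted p = 0.000357), and it was 5.36-fold higher in amygdala than in hypothalamus (adjusted p = 8.35e-05).

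Npas4 lay at -2.02, -0.75 and -1.53 in amygdala, -2.75, -2.04 and -1.92 in hypothalamus and -0.43, 0.17 and 0.23 in prefrontal cortex. Prefrontal cortex was above every other array, and amygdala and hypothalamus overlapped. Npas4 was 4.69-fold higher in prefrontal cortex than in hypothalamus (limma adjusted p = 9.18e-05) and 2.69-fold higher than in amygdala (adjusted p = 0.00209). Amygdala minus hypothalamus was 0.80 ± 0.19 (limma adjusted p = 0.0178), which missed the threshold without the AD pool (adjusted p = 0.0739) and without the RFR pool (0.0963). Nr4a1, also known as Nur77, lay at 5.05, 4.92 and 4.53 in amygdala, 3.57, 3.25 and 3.34 in hypothalamus and 5.67, 5.98 and 5.35 in prefrontal cortex, with no overlap between regions. Prefrontal cortex exceeded hypothalamus 4.87-fold (limma adjusted p = 3.89e-05) and amygdala 1.78-fold (adjusted p = 0.0101, 0.00234 to 0.0769 over the alternatives), and amygdala exceeded hypothalamus 2.73-fold (adjusted p = 0.000813).

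**Figure D2:**
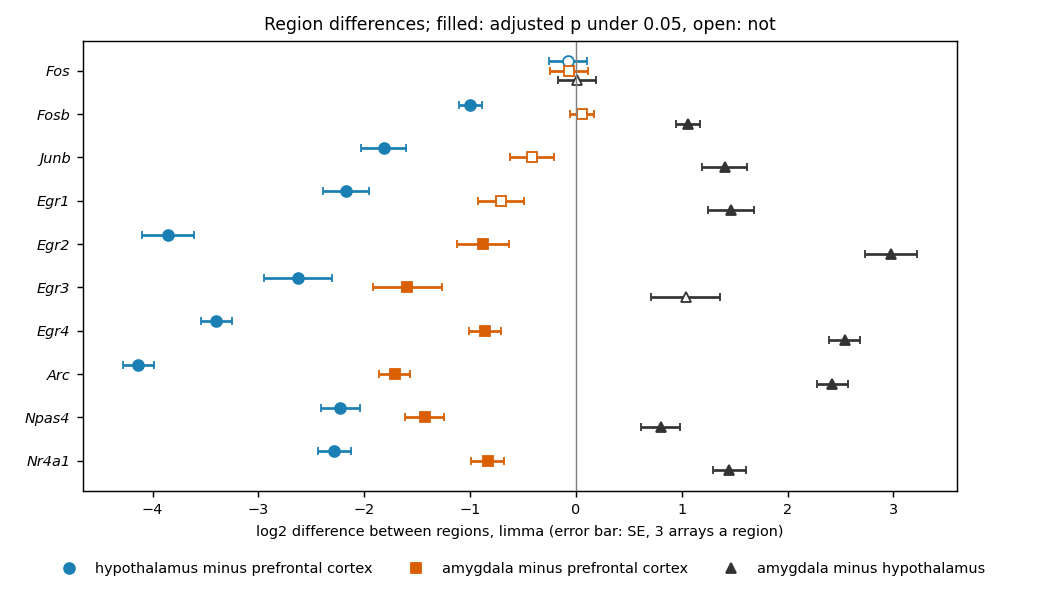
Log2 difference between regions for each immediate early gene from the limma fit, with SE from 3 arrays per region; filled symbols have an adjusted p under 0.05. Arc reaches -4.14 for hypothalamus minus prefrontal cortex, and the 3 symbols of Fos lie around 0.

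Among the 9 genes well above background on all arrays, the order prefrontal cortex above amygdala above hypothalamus held with no array overlapping for 5 (Egr1, Egr2, Egr4, Arc and Nr4a1), against 6.19% of the 11229 genes so measured. It held within each diet for 6, those and Npas4, against 9.49% of genes. With slide as a term in the fit, or without the RFR pool, the step from prefrontal cortex to amygdala kept 2 genes past the threshold, Arc and Npas4. For the genes other than Fos and Egr3, the difference between hypothalamus and prefrontal cortex passed under every alternative. That of Egr3, which is not independent of the filter, passed where it was fitted. Egr3 was not fitted where a gene had to be well above background on all 9 arrays.

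Markers of several cell types moved with the same regions. Of the 5 general neuronal markers, Rbfox3, Snap25 and Syt1 passed as lower in hypothalamus than in prefrontal cortex, and the median difference of the list was -1.52. The summed level of the 3 excitatory cortical markers (Slc17a7, Neurod6 and Tbr1) was 2.77 to 2.88 in prefrontal cortex, 1.22 to 1.57 in amygdala and -4.91 to -4.24 in hypothalamus, where none of the 3 was well above background. The summed level of the 3 inhibitory markers was 5.66 to 5.93 in prefrontal cortex and 6.84 to 7.06 in hypothalamus. Oligodendrocyte markers passed as higher in hypothalamus than in prefrontal cortex for 5 of 5 genes (median 1.28), and choroid plexus markers for 5 of 5 (median 2.78). The 4 fitted microglial markers passed as lower (median -0.68), as did 3 of 5 meningeal markers (1 passed as higher, median -1.20) and 3 of 5 endothelial and mural markers (median -0.52). The part of cell composition in the region differences was not tested, and in tissue RNA fewer expressing cells and less RNA per cell cannot be told apart.

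The wider activity program was described by lists of named genes. Of 23 other immediate early transcription factors, 21 were fitted; 12 were lower and 4 higher in hypothalamus than in prefrontal cortex (21.3% and 26.7% of all genes), with a median difference of -0.73. Klf10, a Krüppel-like factor induced by growth factors, fell by 3.0 ± 0.19 from prefrontal cortex to hypothalamus (limma adjusted p = 2.8e-05), Ier5 fell by 2.54 and Ier2 by 1.80. Nr4a2, a nuclear receptor related to Nr4a1, had another order: it was 1.3 ± 0.23 higher in amygdala than in prefrontal cortex (limma adjusted p = 0.00806) and 2.16 ± 0.23 higher in amygdala than in hypothalamus (adjusted p = 0.000789). Maff, a small Maf factor, was lower in amygdala than in hypothalamus, with a difference of -1.17 ± 0.11 (limma adjusted p = 0.000392).

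Of 31 other activity-induced effectors, 28 were fitted, and 13 were lower and 6 higher in hypothalamus than in prefrontal cortex (median -0.20), beside 21.3% and 26.7% of all genes. Ptgs2, the inducible cyclooxygenase, had a hypothalamus minus prefrontal cortex difference of -4.20 ± 0.28 (limma adjusted p = 3.59e-05). The same difference was -2.85 for Homer1, a postsynaptic scaffold, -2.63 for Dusp6, a phosphatase of ERK, and -2.03 for Plk2, a polo-like kinase that acts at synapses. Another list held genes that carry the signal from the synapse to the promoters. Of 34 listed, 31 were fitted, and 19 were lower and 3 higher in hypothalamus than in prefrontal cortex (median -0.56), beside the same shares of all genes. Mef2c, an activity-regulated transcription factor, had a difference of -4.88 ± 0.11 (limma adjusted p = 1.12e-06), the NMDA receptor subunit gene Grin2a -3.44, the calcium-calmodulin kinase kinase Camkk2 -3.20 and the kinase subunit Camk2a -3.05.

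Across the 9 arrays the genes other than Fos and Egr3 varied together, and most of that came from the regions. Pearson's r between pairs of these 8 genes was 0.719 to 0.995, with a median of 0.951 over 28 pairs, while r between Fos and each of them was 0.0782 to 0.385. After each region's mean was taken away, the 28 pairs ranged from -0.618 to 0.891 with a median of 0.285. Arrays of 1 slide, 1 pool or 1 region share their source, so these values are a description and no p is given. The genes whose levels were most like the mean of the 9 brighter genes over the 9 arrays, among 11229 genes well above background on all of them, were Fam189a1 (r = 0.996), Phf24 (0.995), Prdm8 (0.994), Pgbd5 (0.994) and Dkkl1 (0.993). After centring within regions they were Fubp3 (0.978), Ssbp3 (0.974), Slc26a10 (0.969), Trhr (0.948) and Tgfb3 (0.947). Being picked as the highest of 11229 genes, they have large r partly by selection. Among the 9 brighter genes themselves, r with that centred mean ran from -0.07 (Npas4) to 0.88 (Egr4).

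Diets were compared over the 3 regions to ask whether food restriction or repeated fasting moved these genes alike in all regions. None of the 10 genes passed the limma threshold in any of the 3 diet contrasts. Few genes did: in RFR minus AD 0.0159% of those fitted passed, in CR minus AD 0.0% and in CR minus RFR 0.0159%, while 777, 2086 and 1865 genes had an unadjusted p under 0.05. The p-values of these contrasts are too small, because all arrays of a diet come from 1 pool of mice. At an unadjusted p under 0.05 stood Npas4 in both contrasts with AD, Arc in CR minus AD and Egr4 in CR minus RFR. The contrasts with AD share the AD arrays.

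Npas4 was higher on the RFR than the AD array in 3 of 3 regions, by 1.27 in amygdala, 0.70 in hypothalamus and 0.60 in prefrontal cortex (11.0% of all genes were higher in all 3). It was also higher on the CR than the AD array in 3 of 3, by 0.49, 0.83 and 0.66 (12.3% of all genes). With normexp background correction the hypothalamic values were smaller, 0.41 (RFR minus AD) and 0.50 (CR minus AD). Its AD arrays were therefore the lowest of each region, which was so for no other of the 10 genes and for 2.83% of all genes. RFR minus AD over the regions was 0.86 ± 0.19 (limma, unadjusted p = 0.00247, adjusted p = 0.553, with 0.172 to 1.0 as the range under alternatives), and CR minus AD was 0.66 ± 0.19 (adjusted p = 0.213). Without the amygdala arrays CR minus AD was 0.74 with an adjusted p of 0.0433, while 1233 of all genes then passed. In that reduced fit and in hypothalamus and prefrontal cortex alike, the CR and AD arrays lay on different slides, and the effect of diet cannot be told apart from that of the slide.

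Arc went the other way. Its AD array was the highest of each region, which was so for no other of the 10 genes and for 7.77% of all genes, and CR minus AD over the regions was -0.38 ± 0.15 (limma, unadjusted p = 0.0344, adjusted p = 0.276, 0.128 to 0.903 over the alternatives). In the regions it was -0.19 in amygdala, -0.31 in hypothalamus and -0.65 in prefrontal cortex, and 24.6% of all genes were lower under CR in all 3. The Arc difference RFR minus AD was -0.02 in prefrontal cortex, and over the regions its sign turned with slide as a term (0.0719). Egr4 was lower on the CR than the RFR array in 3 of 3 regions, as were 23.4% of all genes, and CR minus RFR was -0.37 ± 0.15 (limma, unadjusted p = 0.0394, adjusted p = 0.309, 0.21 to 0.901 over the alternatives). For all 10 genes the fitted CR minus RFR difference was below 0, with a median of -0.20 beside -0.01 for all genes, and it was small for Fos (-0.01) and Egr1 (-0.01). The sign turned under at least 1 alternative for 7 of the 10 (all but Fosb, Egr3 and Egr4).

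**Figure D3:**
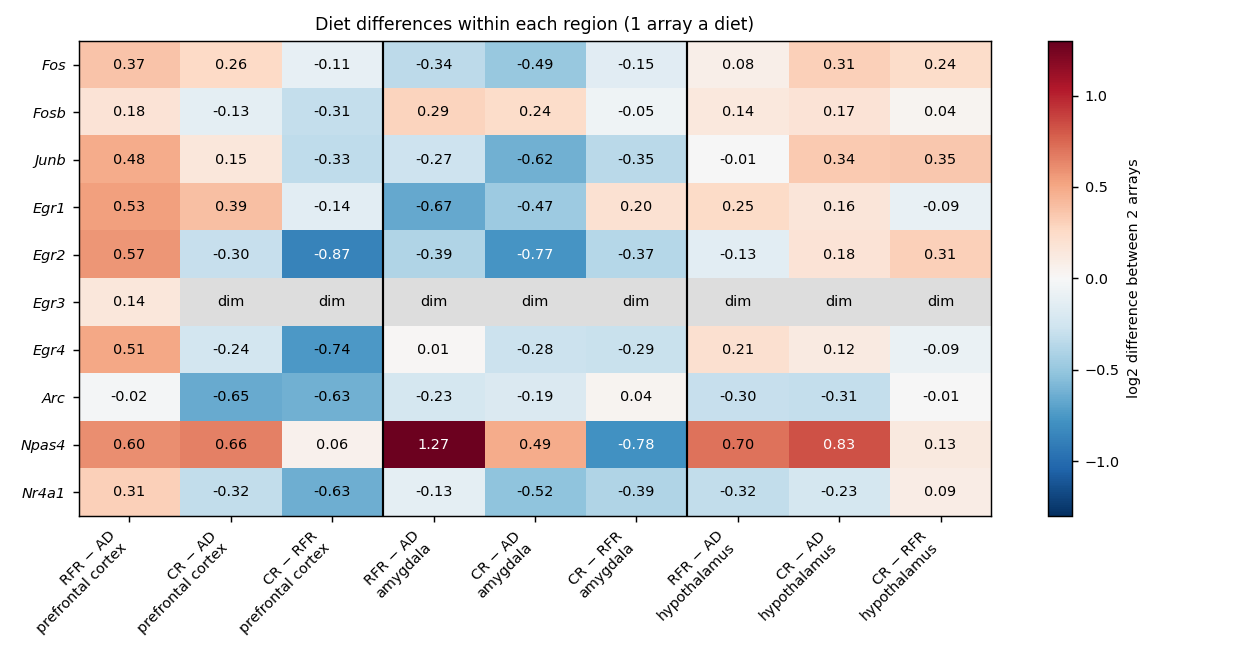
Log2 difference between 2 diets within each region for every immediate early gene, 1 array a diet; grey cells marked dim have a gene that was not well above background on both arrays. Npas4 is positive in all contrasts with AD, from 0.49 to 1.27, and prefrontal RFR minus AD is positive for 9 of 10 genes.

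Within a region each diet had 1 array, so no test was possible and differences of at least 1 log2 unit (2-fold) were counted among genes well above background on both arrays. Of the 10 genes, 1 reached that size in any of 9 comparisons: Npas4, 2.41-fold higher on the RFR than the AD array of amygdala. In that comparison 1.47% of genes reached it and 0.994% in that direction, and 99.6% of genes had a lower difference than Npas4. The difference was 1.07 to 1.35 over the alternatives. The 2 arrays lay on different slides, which cannot be told apart from diet. The shares of all genes at least 1 log2 unit apart in the other comparisons were 3.26% (CR minus AD) and 2.16% (CR minus RFR) in amygdala. In hypothalamus they were 0.691% (RFR minus AD), 1.34% (CR minus AD) and 0.528% (CR minus RFR), and in prefrontal cortex 0.971%, 1.13% and 0.819% in the same order.

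In prefrontal cortex the AD and RFR arrays shared a slide and a scan, and 9 of the 10 genes were higher on the RFR array. The differences were 0.60 for Npas4, 0.57 for Egr2, 0.53 for Egr1, 0.51 for Egr4, 0.48 for Junb, 0.37 for Fos, 0.31 for Nr4a1, 0.18 for Fosb and 0.14 for Egr3, and -0.02 for Arc. Their median was 0.43, where that of all genes was 0.01, and Npas4, Egr2, Egr1, Egr4 and Junb each exceeded 97.3% of genes or more. With normexp the Junb difference was 0.21. For Egr2 and Fos, printed 10 times, the error from repeated spots was 0.033 and 0.03, which covers spots of 1 array only, since they share a labelling, a hybridisation and a scan. The spread between arrays of 1 region and diet, and between pools of mice, is not measured.

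On the CR array of prefrontal cortex, 8 of 9 genes were lower than on the RFR array, with a median of -0.33 (all genes -0.02). Egr2 stood at -0.87, Egr4 at -0.74, Arc and Nr4a1 at -0.63 each, and Npas4 at 0.06. These 2 arrays, like the CR and AD arrays, lay on different slides. Egr3 was not well above background on the CR array. Its value there was 2.46-fold below the AD array and 2.72-fold below the RFR array, and neither size is a bound, because the gene was not measured there. CR minus AD had a median of -0.13 (all genes -0.03), with 4 of 9 genes higher, among them Npas4 (0.66) and Egr1 (0.39), and Arc lowest at -0.65.

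In amygdala most of these genes lay below AD under both diets, while in prefrontal cortex most lay above AD under RFR. On the RFR array 6 of 9 genes were lower than on the AD array, with a median of -0.23 (all genes -0.03): Egr1 stood at -0.67, Egr2 at -0.39 and Fos at -0.34, against 1.27 for Npas4 and 0.29 for Fosb. On the CR array 7 of 9 were lower than on the AD array, with a median of -0.47 (all genes -0.11), among them Egr2 (-0.77), Junb (-0.62), Nr4a1 (-0.52), Fos (-0.49) and Egr1 (-0.47). CR minus RFR had a median of -0.29 (all genes -0.06), with Npas4 at -0.78. The CR array of amygdala was alone on its slide, and amygdala differences of CR cannot be told apart from that slide.

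In hypothalamus the AD array lay on another slide than the RFR and CR arrays. RFR minus AD had a median of 0.08 (all genes -0.06), from -0.32 for Nr4a1 to 0.70 for Npas4, and CR minus AD a median of 0.17 (all genes -0.03), from -0.31 for Arc to 0.83 for Npas4, with 7 of 9 genes higher. The CR and RFR arrays shared a slide and a scan, and their differences ran from -0.09 for Egr1 to 0.35 for Junb, with a median of 0.09 (all genes 0.04). Junb had a second probe, which gave 0.63 in this comparison where the probe used gave 0.35. In prefrontal cortex the second probe and the probe used gave 0.69 and 0.48 (RFR minus AD), 0.69 and 0.15 (CR minus AD), and 0.00 and -0.33 (CR minus RFR), where the probe used gave -0.0144 with normexp.

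**Figure D4:**
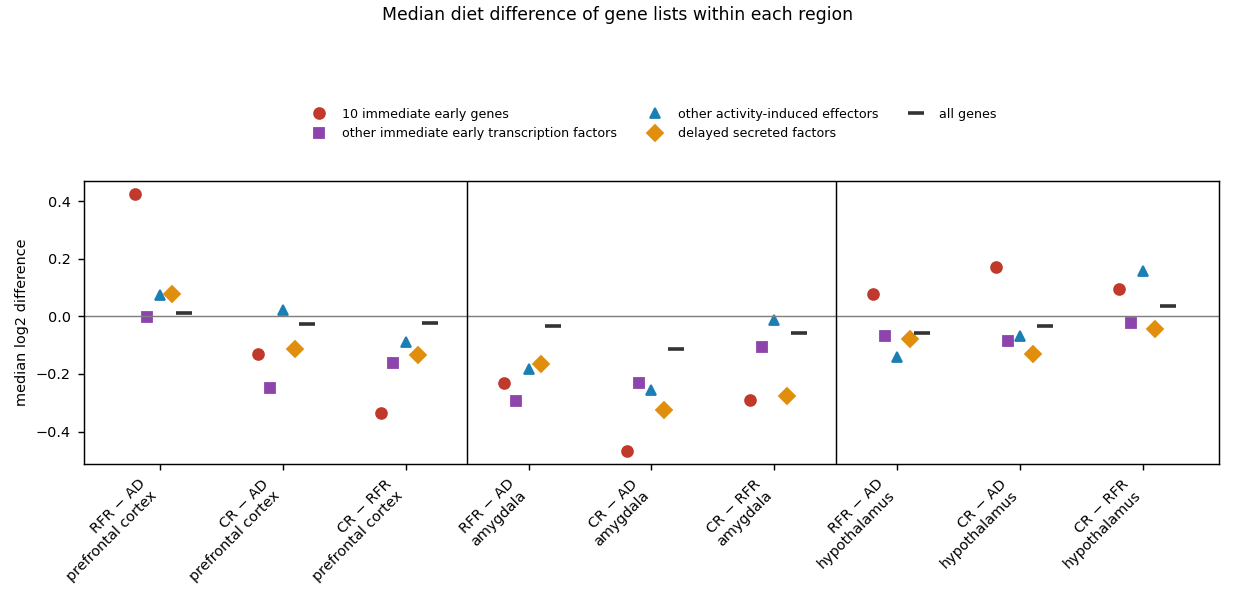
Median log2 difference between 2 diets within each region, 1 array a diet, for the 10 immediate early genes, 3 further lists and all genes, over members well above background on both arrays. The 10 genes stand at 0.43 for RFR minus AD in prefrontal cortex and at -0.47 for CR minus AD in amygdala.

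The other immediate early transcription factors were read beside these values. In the prefrontal RFR and AD arrays 10 of 20 were higher under RFR, with a median of 0.00, and the largest differences were 0.64 for the AP-1 gene Fosl2 and -0.54 for Nfkbiz, an inhibitor-like regulator of NF-κB. For CR minus RFR in prefrontal cortex all 20 were lower (median -0.16, all genes -0.02). Among them were the clock gene Per1 (-0.88), Klf10 (-0.66) and Klf4 (-0.55). Those prefrontal arrays lay on different slides, which cannot be told apart from diet. In amygdala 17 of 21 were lower on the RFR array than on the AD array (median -0.30), beside 6540 of 12072 of all genes, with Nr4a2 at -0.96. On the CR array 17 of 21 were also lower than on the AD array (median -0.23, all genes -0.11). Klf10 stood at -1.12, Nr4a2 at -1.07 and Myc at -1.06. Both comparisons share the AD array. Among the other effectors, Ppp1r15a, a stress-induced phosphatase subunit also known as Gadd34, was 1.46 higher on the CR than the AD array of amygdala, and Plk3 stood at -1.03.

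Levels of tissue and cell type markers also differed between arrays of a region. The 3 pituitary markers (Prl, Gh and Pomc) were all well above background on the 3 RFR arrays and 1 of 3 on each other array, and their summed level was 2.02 on the RFR array of amygdala against 0.30 (AD) and -0.22 (CR), and 0.93 in prefrontal cortex against -0.16 and -0.42. In hypothalamus it was 4.88 (AD), 4.09 (RFR) and 3.92 (CR), so there the sum did not follow the number of markers well above background. In the fit over the 3 regions all 3 were higher in RFR minus AD, with a median of 3.82. Of these, 2 passed the limma threshold, and they were the 2 genes that passed among all 12618 fitted. The 5 choroid plexus markers were all higher on the RFR than the AD array of amygdala, 4 of them by at least 1 log2 unit (median 1.81), and summed to 0.40 there against -0.81 (AD) and -1.08 (CR). In hypothalamus the 5 meningeal markers summed to 5.13 (AD), 5.55 (RFR) and 6.38 (CR), with 3 of 5 at least 1 log2 unit higher on the CR than the AD array. The 5 oligodendrocyte markers summed to 6.04 (AD), 5.55 (RFR) and 6.49 (CR) in prefrontal cortex, and the 2 measured of 3 blood markers to 2.09, 0.81 and 2.09 in amygdala. The 5 neuronal markers summed to 7.57, 7.44 and 7.64 in prefrontal cortex and to 7.06, 6.82 and 6.97 in amygdala. The part of these markers in the diet differences was not tested.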

How the data were processed

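Messenger RNA was measured in 9 samples, each RNA pooled from 4 mice, of which 400 ng was labelled. Per the file headers, the deposited scanner files were made with Agilent Feature Extraction 9.5.1.1. The deposited processed signal, an intensity, had its background and spatial trend removed array by array, with no scaling across arrays. Deposited medians of spot and local background are intensities too. Deposited flags (of another kind, 0 or 1) give, per spot, detection over background, saturation and outlier status. A further deposited table gives the authors' ratio of each array to the AD array of its region: 99.2% of its values were within 0.01 log2 units of the scanner files after 1 constant per array.

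Here the log2 processed signal was scaled by subtracting each array's 75th percentile over 43379 noncontrol spots, outlier spots were left out, spots of a probe were averaged, and the probe with the highest mean stood for a gene. Of 41174 probes, 22951 matched a symbol through their accession (table of GRCm38.p6) and 18223 did not. Between 59.8% and 69.6% of spots were well above background. The number of arrays limits the precision. limma 3.58.1 in R 4.3.3 was fitted with region and diet on 12618 genes with a value on at least 6 arrays, at least 3 of them well above background, which left 4 residual degrees of freedom. P-values were adjusted by Benjamini-Hochberg within a contrast, at a threshold of 0.05. The fit was tested on simulated data with independent noise on each array, which leaves out the pools and slides that arrays share. With single pooled samples, p-values measure the spread between these arrays. Alternatives changed background correction, scaling, source, filter, probe choice, variance model, slide term and arrays used. The normexp alternative used median spot signals. All 10 genes were named; of each other list, up to 4 by size of difference, among those past the threshold where a test was run. A further marker gene is not reported here. The genes and lists were chosen with earlier results of these data known.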

Additional observations from a re-analysis of the deposited data

Results flagged for a closer look

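Egr1 differed in direction between regions on the RFR diet. RFR minus AD was -0.67 in amygdala and 0.53 in prefrontal cortex, each at least 0.5 log2 units from 0 with 1 array a diet, while hypothalamus stood at 0.25. Over the alternatives it was -0.67 to -0.58 in amygdala and 0.53 to 0.59 in prefrontal cortex. Smaller pairs of values with opposite signs were those of Egr2 (-0.39 and 0.57), Fos (-0.34 and 0.37) and Junb (-0.27 and 0.48). The difference between the regions was not tested, because each is a single pair of arrays. The prefrontal arrays shared a slide and the amygdala arrays did not.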

How the results depend on the processing

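Of the recomputed fitted differences of single genes, 370 kept their direction and their side of the threshold, 15 lost the threshold, 6 gained it and 14 changed sign. None of the 14 was past the threshold in either fit; the cause was not tested. Of the differences within a region, 13 changed sign, from values of at most 0.19 in size, 396 did not, and 6 moved further than a residual SD. With normexp these were Npas4 in hypothalamus (RFR minus AD 0.41, CR minus AD 0.50), Fosb there (CR minus AD -0.14, from 0.17) and Junb in prefrontal cortex (RFR minus AD 0.21, CR minus RFR -0.0144). With the mean of all probes Junb stood at 0.42 for CR minus AD in prefrontal cortex. For Fos, hypothalamus minus prefrontal cortex was 0.0842 with slide as a term and 0.0303 without the RFR pool, amygdala minus hypothalamus was -0.19 without the AD pool, and amygdala minus prefrontal cortex was 0.30 with the slide term, 0.068 without the CR pool and 0.0471 without the RFR pool. For Fosb that last difference was -0.000502 with normexp, -0.0477 with quantile scaling and -0.0442 without the CR pool, and for Junb 0.0704 with the slide term. With the slide term Arc stood at 0.0719 for RFR minus AD and Egr4 at 0.45 for CR minus AD. For CR minus RFR, Npas4 stood at 0.0932 without amygdala and Arc at 0.015 without prefrontal cortex. Of the 10 genes, 2 passed in amygdala minus prefrontal cortex with the slide term and 2 without the RFR pool, where 6 passed with all arrays, and 1, Npas4, passed in CR minus AD without amygdala. With dim values raised to the floor (the lowest signal well above background on the array), dim genes were counted too. Egr3 was then the 1 gene at least 1 log2 unit apart in CR minus AD and the 1 in CR minus RFR in prefrontal cortex. Its CR value there (-5.08) lay above the floor (-5.12) and was not raised, so neither size is a bound. For 7 genes not named in the diet fits, 46 of 246 values had the opposite sign and 0 passed. Counts over all genes moved by more than 1.5 times as follows. Hypothalamus minus prefrontal cortex gave 3493 genes without the RFR pool. Amygdala minus hypothalamus gave 2234 without the CR pool and 1426 without the RFR pool. Amygdala minus prefrontal cortex gave 1394 with the slide term, 1566 without the CR pool and 894 without the RFR pool. RFR minus AD gave 13 with the slide term, 4 from the authors' deposited table, 0 among genes well above background on all 9 arrays, and 1 each with normexp, without a filter, without amygdala and without the CR amygdala array. CR minus AD gave 1233 without amygdala, 5 with the slide term, 4 from the authors' deposited table, and 1 each without hypothalamus and without prefrontal cortex. CR minus RFR gave 41 with normexp and 41 with trended variances, 24 from the authors' deposited table and 24 among genes well above background on all arrays, 1 each without a filter, without amygdala and without prefrontal cortex, and 0 with the slide term. Region contrasts were not run on the authors' table, which holds ratios within a region. The region fit pairs the 3 regions of a pool through its diet term. Egr3 alone among the 10 genes was not well above background on every array. Background correction also moved the low signals of Npas4 and Fosb in hypothalamus, as given above.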

Other observations

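Genes that act with the immediate early factors, and secreted products that follow them, had their own patterns. Nab2, a corepressor that EGR factors bind and induce, was lower in hypothalamus than in prefrontal cortex, with a difference of -1.83 ± 0.10 (limma adjusted p = 1.46e-05), and amygdala minus prefrontal cortex was -0.07 (adjusted p = 0.655). Of 13 partners and corepressors, 5 were lower and 2 higher in hypothalamus than in prefrontal cortex, beside 21.3% and 26.7% of all genes. Rxrg, a retinoid X receptor, a family that pairs with Nr4a1, was 1.94 higher in hypothalamus and 2.54 higher in amygdala than in prefrontal cortex.

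Of 16 delayed secreted factors, 14 were fitted, with 5 lower and 5 higher in hypothalamus than in prefrontal cortex (median -0.03), beside the same shares of all genes. Nrn1, a neurite-promoting protein, stood at -3.15 and Inhba, the activin subunit, at -3.12, against 2.36 for the granin Scg2 and 2.31 for Tac1, the precursor of substance P. Within amygdala, CR minus AD was -1.29 for Nppc, the C-type natriuretic peptide precursor, -1.06 for Bdnf and -0.80 for Nrn1, and CR minus RFR was -0.65 for Bdnf. These comparisons have 1 array a diet, with the CR array alone on its slide, and no test.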
